A study of Danio rerio with 6 samples.

Results

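The 148 transcript records described here were lower in ventricles of ttna+/- zebrafish than in those of their wild-type (WT) siblings, relative to library totals. They are labelled members in the plots, and they were chosen by their own values in this comparison. Counts were first expressed per 1000000 counts of the library (CPM). A record entered when its mean over the 6 libraries was at least 5 CPM and its lowest WT value was more than 1.5 times its highest ttna+/- value. Of 57775 annotated records, 12347 reached that mean and 148 of these met the fold. Because the values chose the records, the levels and folds given for them are a description and carry no test.

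RNA with poly(A) tails came from heart ventricles of zebrafish (Danio rerio) aged 6 months. The ttna+/- fish carried 1 truncating allele, with the change in exon 201 of ttna, and WT siblings served as controls. Each library was made from 6 pooled ventricles, and each genotype had 3 libraries, named biological replicates in the labels. Pooling hides the spread between fish, so the SD values below are between pools. In bulk tissue, fewer cells of a type and less RNA per cell cannot be told apart.

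Titin is the giant protein that spans the sarcomere, the contractile unit of muscle, from its border to its middle. It acts as a molecular spring that sets passive stiffness, and as a scaffold on which other sarcomere proteins assemble. Truncating variants of the human gene are a frequent genetic finding in dilated cardiomyopathy. In zebrafish, ttna is 1 of a pair of neighbouring titin genes, and complete loss of titin function impairs the heartbeat of embryos.

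The tables name each record by an Ensembl transcript ID, and the gene tables at hand hold 0 of the 57775 IDs. No lower record can therefore be given a gene, a role or a genome position, and the labelled tissue was not checked against its marker genes. The records are identified below by their annotated length in bases. An ID is printed for the record of highest mean CPM and for the record with the highest ratio of lowest WT to highest ttna+/- CPM, called the gap ratio below.

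Depth and fragment size moved with genotype. The 3 ttna+/- libraries held 40808904 to 44412410 estimated counts and the 3 WT libraries 28688112 to 34140752 (exact permutation test, two-sided p = 0.1). The annotated length of records over 1000 bases exceeded the effective length, which falls as sequenced fragments grow, by 168 ± 1.31 bases in ttna+/- and 158 ± 4.35 bases in WT (n = 3 pools per genotype, SD; p = 0.1 in the same exact permutation test). A p of 0.1 is the smallest that 3 libraries against 3 allow. The part of either measure in the results below was not tested. The TPM values use each library's effective lengths, which is not a test of that part.

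The 148 lower records made up 1.20% of the 12347 records that reached the minimum mean. The mirrored rule, with the lowest ttna+/- value more than 1.5 times the highest WT value, held for 53 records. This balance depended on how the libraries were scaled. With TMM factors the rule held for 93 lower and 75 higher records, and with DESeq2 size factors for 80 lower and 81 higher ones. Applied to TPM in place of CPM, it held for 131 lower and 50 higher records. DESeq2 size factors moved the median ttna+/- to WT ratio over all records up by 0.10 on the log2 scale. Of the 148 records, 90 still met the rule with TMM factors and 77 with DESeq2 size factors. Under both scalings the WT and ttna+/- values of all 148 still did not overlap. Their choice fixed this outcome, since neither scaling moved any library against another by as much as 1.5-fold. The share of all 12347 records without overlap is not given here. The rule also sets its number beside 8 further groupings of the libraries as 3 against 3, neither by genotype nor with ttna+/- 1, ttna+/- 3 and WT 1 together. These 8 gave 0 to 15 records in a direction. The grouping that the rule leaves out has no count here, so this is not the range of all groupings.

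**Figure D1:**
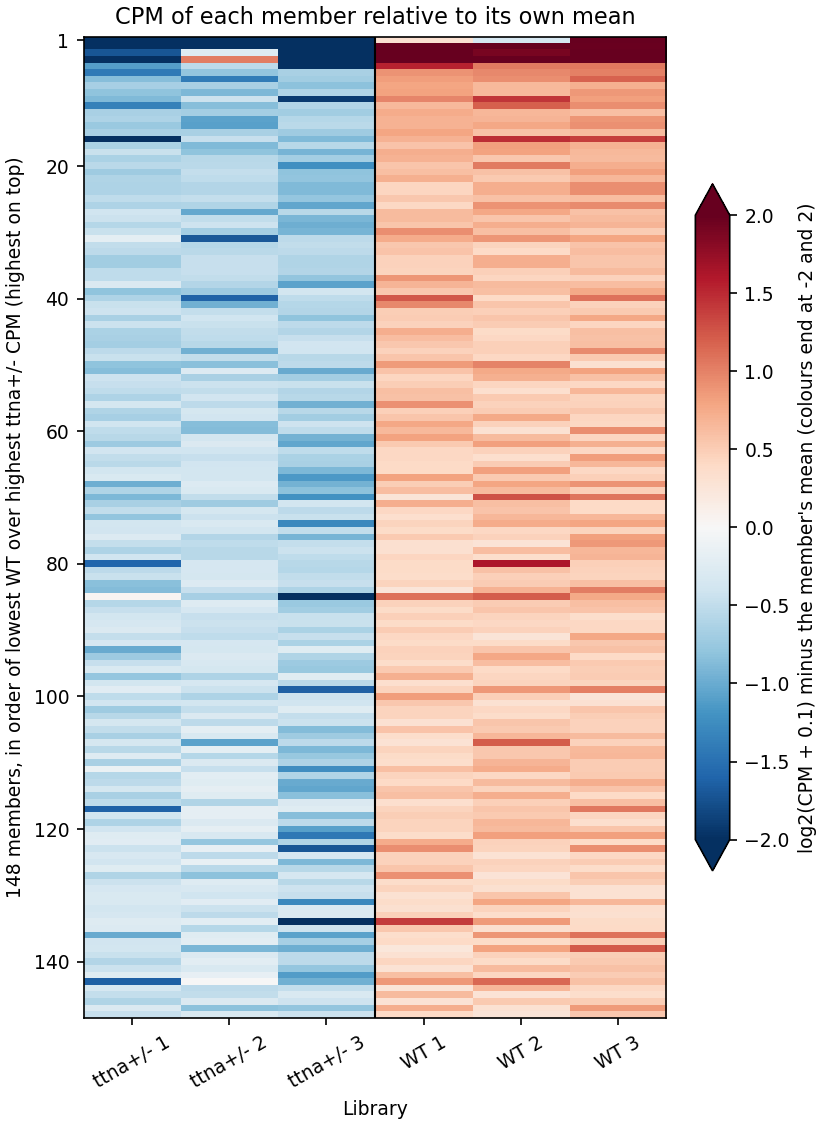
Each row is 1 of the 148 lower records and each column a library, with colour for log2(CPM + 0.1) minus the record's mean over the 6 libraries. All rows are lower in the 3 ttna+/- columns than in the 3 WT columns, and the topmost rows, with the highest gap ratios, include some that are very uneven within a genotype.

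Most lower records differed by a factor near 2. The WT mean over the ttna+/- mean had a median of 2.15 over the 147 records with counts in ttna+/-, and a lowest value of 1.64. It was above 2 in 106 records, above 3 in 16 and above 5 in 5, the record without ttna+/- counts included. The gap ratio was above 2 in 27 records and above 3 in 5. The median of the mean CPM was 14.1 in the lower records, against 14.5 in all 12347. Of the 106 records with a mean of 1000 CPM or more, 4 (3.77%) were lower by the rule, against 51 (1.20%) of the 4234 records with a mean from 5 to 10 CPM. In 42 of the 148 the ttna+/- mean was under 5 CPM, so these reached the minimum through their WT values.

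**Figure D2:**
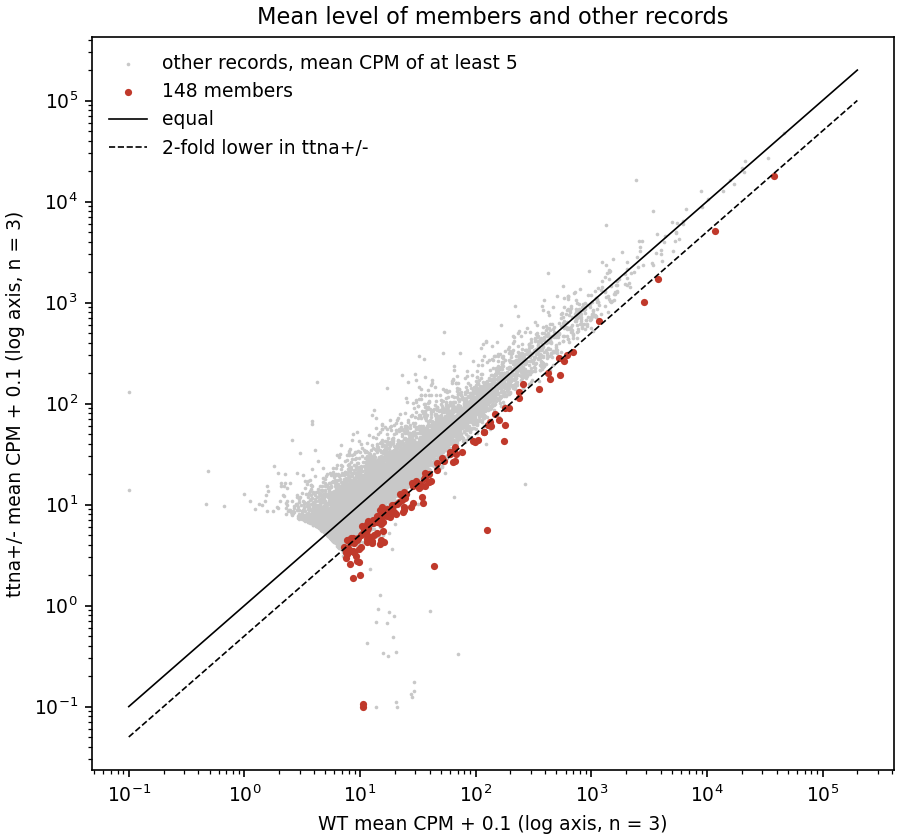
Mean CPM + 0.1 of each record in ttna+/- (vertical) against WT (horizontal), both on log axes, with the 148 lower records in red and other records with a mean of at least 5 CPM in grey. The lower records follow the line of a 2-fold difference over the whole range of levels, and a few lie far below it.

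A few abundant records held most of the counts of the set. ENSDART00000063800.7, a transcript of 1331 bases, stood at 14979, 19257 and 18970 CPM in ttna+/- 1 to 3, against 32528, 40920 and 40786 CPM in WT 1 to 3. Its highest ttna+/- library lay far under its lowest WT library, and libraries of 1 genotype were within 1.5-fold of each other. The edgeR log2 fold change was -1.02 ± 0.22 (SE). Per length it stood at 15332 ± 1883 TPM in ttna+/- and 31542 ± 2492 TPM in WT (n = 3 pools per genotype, SD), the highest TPM of the lower records. TPM is the count per effective base, scaled to 1000000 per library.

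A record of 1180 bases came second, with 4928, 5871 and 4419 CPM in ttna+/- 1 to 3, against 10952, 11373 and 13143 CPM in WT 1 to 3. The groups were 1.87-fold apart at their nearest libraries. A record of 4216 bases had 1633, 1800 and 1688 CPM in ttna+/- and 4170, 3289 and 3815 CPM in WT. Its ttna+/- libraries were close to each other, and the WT libraries spread more. A record of 688 bases had 1106, 1117 and 822 CPM in ttna+/- and 2264, 3140 and 3249 CPM in WT. It was the 1 record among the 9 with the highest mean CPM whose gap ratio passed 2, at 2.03.

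The next 5 by mean CPM were closer to the limit, with gap ratios from 1.52 to 1.58. The 894-base record showed 659 ± 67.8 CPM in ttna+/- and 1163 ± 53.9 CPM in WT (n = 3 pools per genotype, SD). The 487-base record showed 323 ± 51.7 CPM in ttna+/- and 695 ± 80.3 CPM in WT. Both were lower by about the median factor of the set or less. Records of 1319, 1118 and 3372 bases stood at 301 ± 43.0, 265 ± 58.3 and 285 ± 40.3 CPM in ttna+/-, against 615 ± 69.1, 583 ± 64.9 and 524 ± 26.9 CPM in WT.

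Together the 148 records took 2.76%, 3.33% and 3.05% of the counts of ttna+/- 1 to 3, against 6.04%, 6.94% and 7.19% of those of WT 1 to 3. ENSDART00000063800.7 alone took 1.77% ± 0.239 of the counts in ttna+/- and 3.81% ± 0.481 in WT (n = 3 pools per genotype, SD). The remaining 147 took 1.27% ± 0.126 in ttna+/- and 2.91% ± 0.175 in WT. The ttna+/- to WT ratio of the summed share was 0.453, and 0.437 without the most abundant record. Any part of the set must give a low ratio, since each record was chosen to be lower in ttna+/-.

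**Figure D3:**
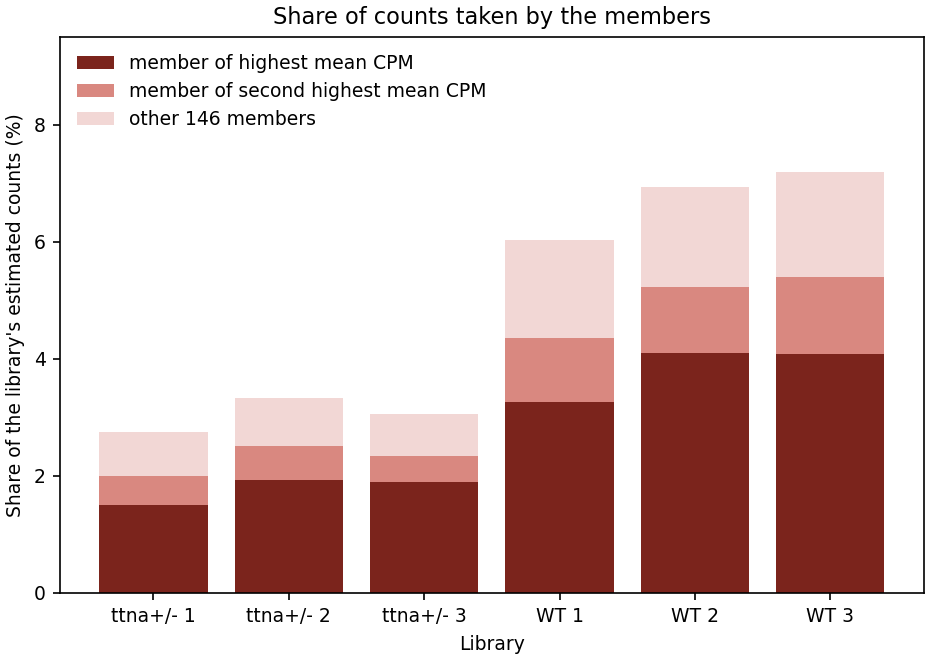
Share of each library's estimated counts taken by the 148 lower records, split into the record of highest mean CPM, the second and the other 146. The 3 ttna+/- bars lie between 2.76% and 3.33%, and the 3 WT bars between 6.04% and 7.19%.

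The 5 highest gap ratios belonged to records that spread over more than 2-fold within a genotype. ENSDART00000130355.4, of 3857 bases, had a count of 0 in each ttna+/- library, where 3 counts would be 0.0675 to 0.0735 CPM. In WT 1 to 3 it stood at 0.411, 0.228 and 30.7 CPM. Its WT level thus came almost wholly from WT 3, which held 98.0% of its summed WT CPM, so its WT level was not even across libraries. The record of 6436 bases had under 1 count in each ttna+/- library, against 16.6, 11.3 and 3.78 CPM in WT 1 to 3. These were the 2 lower records with a WT library under 5 CPM.

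A record of 2470 bases stood at 1.86, 5.25 and under 0.01 CPM in ttna+/- 1 to 3, against 45.5, 23.8 and 60.1 CPM in WT 1 to 3. A record of 471 bases had 16.4 CPM in ttna+/- 2 and under 1 count in the other 2 ttna+/- libraries, against 170, 61.3 and 144 CPM in WT. In both, 1 ttna+/- library had far more than another, while all WT libraries were higher still. The record of 5407 bases had 1.89, 2.84 and 0.963 CPM in ttna+/- and 12.2, 8.63 and 8.71 CPM in WT.

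In the next 4 records by gap ratio, the libraries of a genotype lay closer together, although 18 of all 148 spread over more than 2-fold in ttna+/-. A record of 917 bases stood at 2.75, 4.30 and 4.75 CPM in ttna+/- 1 to 3, against 14.1, 14.8 and 15.3 CPM in WT 1 to 3. A record of 739 bases had 4.44, 3.01 and 4.95 CPM in ttna+/- and 14.6, 15.5 and 18.4 CPM in WT. Both gap ratios were just under 3, at 2.96 and 2.95. Records of 3887 and 889 bases followed, at 3.53 ± 0.242 and 4.30 ± 0.480 CPM in ttna+/-, against 9.66 ± 0.505 and 12.7 ± 1.00 CPM in WT (n = 3 pools per genotype, SD).

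In other records the libraries of each genotype were very even. In 47 of the 148 records (31.8%) the highest library exceeded the lowest by under 25% within each genotype, against 12.3% of all 12347 records. The rule favours such records, since a wide spread makes the groups meet. The median WT to ttna+/- fold of the 47 was 1.93, below that of the set. A record of 2718 bases showed 13.3, 12.5 and 12.3 CPM in ttna+/- and 21.9, 22.4 and 22.5 CPM in WT. A record of 243 bases, the shortest of the 148, showed 139, 140 and 135 CPM in ttna+/- and 378, 330 and 341 CPM in WT. A record of 1295 bases showed 177, 173 and 171 CPM in ttna+/- and 462, 437 and 421 CPM in WT. The folds of the means were 2.53 for the 243-base record and 2.54 for the 1295-base record, above the median of the set. At the other end, 20 records spread over more than 2-fold within a genotype, 18 of them in ttna+/- and 7 in WT, some in both.

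Several lower records stood side by side in the tables. All 6 tables list the records in the same order, and 27 of the 148 were directly next to another lower record. Joining those within 5 rows of each other left 126 places, of which 15 held 2 to 4 lower records, 37 in all. The tables do not say whether neighbours are transcripts of 1 gene, and neighbours that share sequence also share reads, so the 148 are not 148 independent observations. Over 3194 pairs of neighbouring records with a mean of at least 5 CPM each, the log2 ratios of ttna+/- to WT correlated at a Pearson r of 0.30 and a Spearman rho of 0.29. These are correlations across records of the same libraries, which are not replicates.

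The largest such place held 4 consecutive records, those of 917, 951, 902 and 1295 bases. The 1295-base record carried nearly all of its counts. The 951-base record had only 0.716, 2.62 and 1.94 CPM in ttna+/- 1 to 3, against 5.96, 10.4 and 9.64 CPM in WT. The sum of the 4 was 182.1, 182.6 and 181.0 CPM in ttna+/- 1 to 3, against 490.0, 473.9 and 455.8 CPM in WT 1 to 3. The summed ttna+/- libraries differed by less than 2 CPM, although the 3 minor records varied among them.

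Another place held 3 consecutive records of 835, 1707 and 559 bases. Their sum stood at 41.4 ± 1.52 CPM in ttna+/- and 84.1 ± 4.93 CPM in WT (n = 3 pools per genotype, SD). A place of 4 rows with lower records of 610, 2684 and 1535 bases summed to 363 ± 26.7 CPM in ttna+/- and 742 ± 41.5 CPM in WT. The fourth row there, of 868 bases, was no lower record but had its values in the same order, at 36.5, 34.4 and 32.2 CPM in ttna+/- and 55.6, 47.6 and 59.2 CPM in WT. Records of 739 and 1119 bases at a further place summed to 195 ± 36.1 CPM in ttna+/- and 552 ± 44.1 CPM in WT. In all 15 places the sum over all rows of the place also had its lowest WT value more than 1.5 times its highest ttna+/- value, which the choice of records makes likely.

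**Figure D4:**
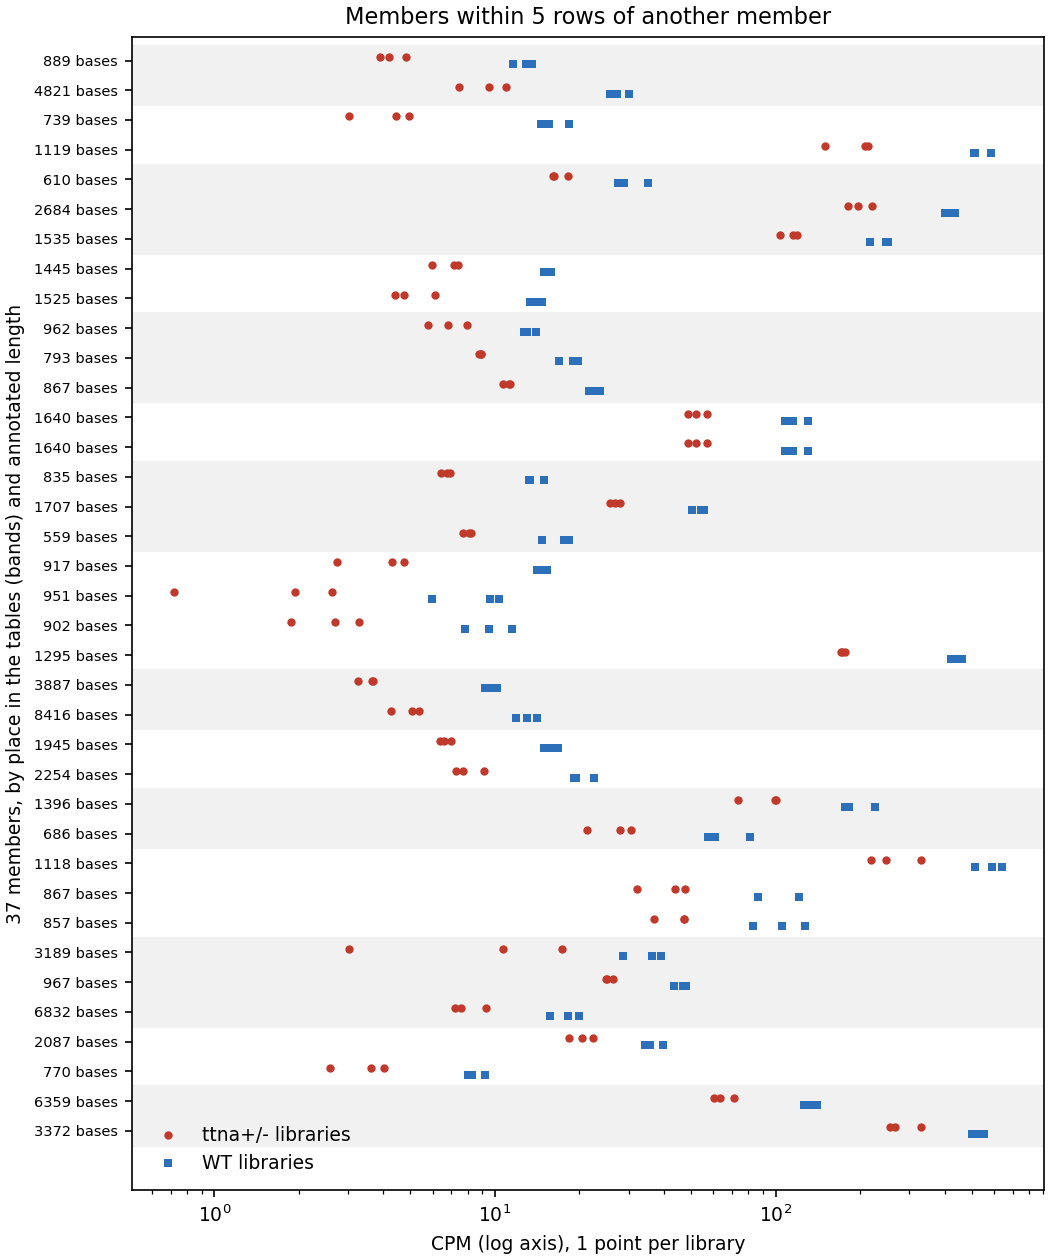
CPM on a log axis of the 37 lower records that stood within 5 rows of another, 1 point per library, with grey and white bands for the 15 places. The ttna+/- points (circles) lie left of the WT points (squares) in each row, although records of 1 place differ widely in level.

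Elsewhere a neighbour ran the other way. The row after the 6436-base record holds a record of 6398 bases, which stood at 228, 191 and 205 CPM in ttna+/- 1 to 3, against 149, 76.1 and 83.3 CPM in WT 1 to 3. Summed with both neighbours, the 6436-base record gave 230, 192 and 207 CPM in ttna+/-, against 167, 88.0 and 88.2 CPM in WT. The sum was thus higher in ttna+/-, opposite to the record itself. The row before the 5407-base record holds one of 5466 bases, with 42.9, 38.6 and 36.8 CPM in ttna+/- and 29.1, 24.9 and 29.3 CPM in WT. That sum, with the row after included, came to 44.8, 41.5 and 37.8 CPM in ttna+/-, against 41.4, 33.5 and 38.0 CPM in WT, and the groups overlapped.

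Other neighbours were far more abundant, or ran the other way in part. The 2470-base record precedes one of 2986 bases with 4067, 4669 and 4793 CPM in ttna+/- and 5075, 3364 and 4525 CPM in WT, next to which its own counts are small. A record of 2231 bases stood at 32.4, 34.7 and 31.5 CPM in ttna+/-, against 57.4, 61.9 and 60.5 CPM in WT. Beside it, a record of 2094 bases met the mirrored rule, with 15.1, 20.5 and 12.9 CPM in ttna+/- and 0.0556, 2.60 and 3.76 CPM in WT. The pair summed to 49.0 ± 5.55 CPM in ttna+/-, against 62.1 ± 4.04 CPM in WT (n = 3 pools per genotype, SD), nearer to each other than the record alone. In all, 2 of the 148 lay within 5 rows of a record that met the mirrored rule. The other, of 8416 bases, stood at 5.08, 4.27 and 5.36 CPM in ttna+/- 1 to 3, against 11.9, 14.1 and 13.0 CPM in WT 1 to 3. Records of 4664 and 4182 bases, 4 and 5 rows from it, met the mirrored rule. With the 4664-base record it summed to 32.0 ± 4.16 CPM in ttna+/-, against 24.5 ± 2.68 CPM in WT, and with the 4182-base record to 32.7 ± 3.10 CPM in ttna+/-, against 25.6 ± 2.57 CPM in WT (n = 3 pools per genotype, SD). Both sums had the higher mean in ttna+/-, opposite to the 8416-base record itself. With the 4664-base record the groups overlapped, since the sum in ttna+/- 1 lay just under that in WT 2.

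When the counts of the row before and the row after were added to each lower record, the 1.5-fold distance held for 84 of the 148. The groups still did not overlap for 127, and neither number is given here over all records. The choice of records favours both counts, since each record brings its own distance into the sum. The added rows can be unrelated, so a lost distance does not mark a record as wrong. The lower record itself held the larger part of the 3 summed rows in 92 cases.

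Whether reads had to be divided among records, though not how far, could be read in part from the counts. An estimated count that is whole to within 1e-06 in all 6 libraries is what reads assigned to a single record would give. This was so for 20 of the 148 lower records (13.5%), against 17.0% of all 12347 records. ENSDART00000063800.7 and the 1180-base record were among the 20, which together held 75.7% of the summed mean CPM of the set. Nearly all of that lay in these named records, with means of 27907 and 8448 CPM. The WT to ttna+/- fold of the 20 ranged from 1.71 to 2.40, with a median of 2.02. The records with a divided count in some library and with counts in ttna+/- had a median of 2.25. The 9 records with the highest gap ratios were all of the divided kind.

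Some of the 20 were of moderate level. A record of 1376 bases stood at 21.4, 17.4 and 12.4 CPM in ttna+/- 1 to 3, against 41.9, 40.6 and 40.3 CPM in WT 1 to 3. Its WT libraries were nearly equal, and ttna+/- 3 was the lowest library. A record of 749 bases had 56.8, 69.1 and 55.7 CPM in ttna+/- and 132, 152 and 122 CPM in WT. A record of 2180 bases had 90.4, 88.6 and 92.1 CPM in ttna+/- and 169, 151 and 216 CPM in WT, so that here the ttna+/- libraries were the even ones. A record of 915 bases had 6.31 ± 0.283 CPM in ttna+/- and 11.5 ± 0.226 CPM in WT (n = 3 pools per genotype, SD).

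2 pairs of lower records had identical counts in every library, as records of 1 sequence would. One pair of 1640 bases, adjacent in the tables, stood at 48.6, 56.9 and 52.0 CPM in ttna+/- and 108, 131 and 115 CPM in WT in both records. The other pair, of 522 bases, lies far apart in the tables and stood at 3.47, 3.55 and 2.87 CPM in ttna+/- and 7.25, 8.93 and 10.3 CPM in WT. Counted once each, the lower records had 146 distinct sets of values.

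The lower records were short. Their median annotated length was 1357 bases (quartiles 893 and 2361.75), against 2409 bases (quartiles 1486 and 4038) for all 12347 records, and length took no part in the choice. Records of up to 1000 bases numbered 50 of the 148 (33.8%), against 13.1% of all, and records over 4000 bases 15 (10.1%), against 25.4%. Read the other way, 3.10% of the records of up to 1000 bases were lower by the rule, and 0.479% of those over 4000 bases. For the mirrored rule the shares were 0.620% and 0.287%, and the 53 records had a median length of 2094 bases.

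Length also moved with the genotype ratio over all records. The median log2 ratio of ttna+/- to WT was -0.23 in the 207 records of up to 500 bases with a mean of at least 5 CPM, and 0.19 in the 458 records over 8000 bases, with the bins between in order. That shift favours short records on the lower side, and its part in the number of short records was not tested. In TPM, which uses the effective length of each library, 119 of the 148 kept a 1.5-fold distance. Among them were 39 of the 50 of up to 1000 bases, with all 7 of up to 500 bases. No lower record had overlapping groups in TPM, and the share of all records without overlap is not given here. The choice of these records by their CPM in the same libraries favours both counts, which therefore test nothing about length. The rule applied to TPM itself held for 131 records, with a median length of 951 bases, against 1609 bases for all records with a mean of at least 5 TPM. Of these 131, 95 were among the 148.

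**Figure D5:**
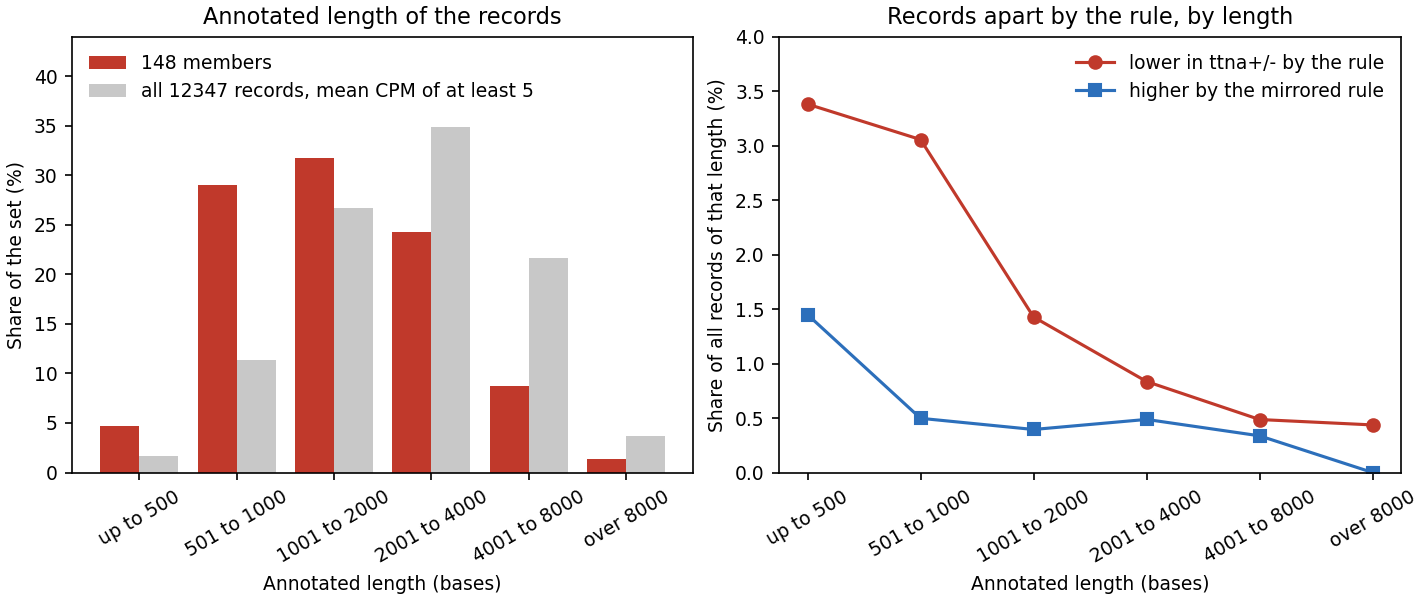
Left, share of the 148 lower records (red) and of all 12347 records with a mean of at least 5 CPM (grey) in 6 bins of annotated length. Right, share of all records of a bin that were lower by the rule (circles) or higher by the mirrored rule (squares), with the lower ones at 3.38% in the shortest bin and 0.437% in the longest.

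Within a genotype, libraries did not take turns evenly. ttna+/- 2 was the highest ttna+/- library in 78 of the 148 (52.7%), against 44.2% of all 12347 records, and ttna+/- 3 the lowest in 83 (56.1%), against 42.6%. Among the WT libraries, WT 1 was the lowest in 67 (45.3%), against 31.2% of all records, and WT 3 the highest in 63 (42.6%), against 26.4%. The libraries that set the distance were thus most often ttna+/- 2 and WT 1. The rule used these same CPM values, so the shares are a description and test nothing. ttna+/- 2 over the mean of ttna+/- 1 and 3 had a median of 1.09 in the 147 lower records with counts in all libraries, against 1.04 over all such records. WT 1 over the mean of WT 2 and 3 had a median of 0.96, against 1.07.

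The limit of 1.5 ran through a continuous range. 48 lower records had a gap ratio of up to 1.6, and 84 further records with a mean of at least 5 CPM lay from 1.4 to 1.5. Just inside, a record of 1411 bases had a highest ttna+/- value of 4.63 CPM and a lowest WT value of 6.95 CPM. Just outside, a record of 6462 bases had 13.6 CPM and 20.3 CPM. Their WT to ttna+/- folds of the means were 1.76 and 1.77. At the lower limit of level, 16 lower records had a mean from 5 to 6 CPM, and 22 records with a mean from 4 to 5 CPM met the fold.

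The test across all records used the same comparison as the rule, so it says nothing independent of the 148. By the edgeR quasi-likelihood test, 0 of 29950 records (0%) were called lower in ttna+/- at a Benjamini-Hochberg adjusted p under 0.05 and a fold over 2, and the smallest adjusted p was 0.163, the same over the lower records. At an unadjusted p under 0.05 edgeR had 1746 records lower in ttna+/-, 5.83% of those tested. The filter kept 147 of the 148, all but ENSDART00000130355.4, and 146 of these had such a p, which the choice of records favours. By the same limits, DESeq2 called 155 of 33763 records lower (0.459%), of which 69 had a mean of at least 5 CPM and 63 were among the 148. It called 282 records higher in ttna+/-. Its calls took in records under 5 CPM, with other scaling and limits than the rule. Their balance therefore cannot be set directly against the 148 lower and 53 higher records of the rule.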

How the data were processed

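Polyadenylated RNA of 6 ventricle pools was sequenced as paired reads of 50 bases, per the labels. Each library has 1 deposited table, which lists for every record its length (annotated and effective), its TPM and an estimated count that is not scaled to a common total. The builds GRCz11 and Zv9, and Cuffdiff, Cufflinks 2.2.1 and TopHat2 2.1.1, stand in the submitters' processing notes with no role. The program behind these tables is not given in the sources used here.

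CPM was the estimated count over the library's sum, times 1000000, with no further scaling. The test across all records used counts rounded to whole numbers, edgeR 4.0.16 in R 4.3.3 (TMM, filterByExpr with a minimum count of 10, robust quasi-likelihood fit, genotype as the only term, Benjamini-Hochberg adjustment), and was tested on simulated data. Its SE is the log2 fold change over the root of F. How often the test called a change near 2-fold in the simulated data is not given here. Alternatives used DESeq2 1.42.0, limma 3.58.1, other scalings, limits and left-out libraries. The members, lists and rules were chosen with earlier results of these data known. Records described by length were the 9 first by gap ratio, the 9 first by mean CPM and those next to the limit. Others, such as those at shared places or with whole counts, were picked after their values were seen. Lists of marker and pathway genes could not be used without gene names. Library totals of 28688112 or more put 5 CPM at over 100 counts, and 133 of the 148 records had over 100 counts in every library. In 4 of the 148 a ttna+/- library had under 1 count. The part of counting error in the distances was not tested. Counts do not carry the uncertainty of dividing reads among records.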

Additional observations from a re-analysis of the deposited data

How the results depend on the processing

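The number of records lower by the rule was 148. It was 93 with TMM factors (90 of them among the 148), 80 with DESeq2 size factors (77 among the 148) and 131 in TPM. The limits set it directly: 842 with no minimum of the mean CPM, 327 at 1 CPM, 59 at 20 CPM, 519 where the lowest WT value had to be 25% above the highest ttna+/- value, and 27 at a fold of 2. Leaving out 1 library, which eases the rule, gave 179 to 350, more than 1.5 times the number without ttna+/- 1 (234), ttna+/- 2 (350) or WT 1 (232). Asking for the fold within each same-numbered pair gave 284. Chosen after seeing the data, counting identical records once gave 146, joining neighbours 126 and a mean of 5 CPM in the 2 lower WT libraries 147. Adding both neighbours was counted among the 148 alone, where 84 kept the fold. That number could only fall, so it is not the rule's number over all records. edgeR called 0 records lower under the other scalings and filters, with limma-voom, with the replicate block and with each library left out. DESeq2 called 155 and limma on log2(TPM + 0.1) 3; the cause was not tested. With the replicate block 1530 records were lower at an unadjusted p under 0.05, against 1746. Replicate numbers were those of the sample titles, while other names given to the WT libraries run 1 higher. The results by same-numbered pair, replicate block and replicate number rest on the titles. What each library had above or below its genotype mean was compared within replicate numbers. The correlations within numbers 1, 2 and 3 were 0.54, 0.44 and -0.38, so not every library went best with its own number. Whether libraries of the same number were handled together cannot be told from these values. The ttna+/- to WT ratio of the summed share, 0.453, was 0.463 in TPM, 0.437 without the record of highest mean CPM and 0.442 without the 2 highest. The choice of records keeps any such ratio low, so these values test nothing.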
